A study of Mus musculus with 8 samples.

Results

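The 51 genes described here belong to the bone morphogenetic protein (BMP), growth and differentiation factor (GDF) and transforming growth factor beta (TGF-beta) pathways. They were chosen by symbol from 24675 named rows of the expression table, as 21 ligand genes, 11 receptor genes, 7 secreted antagonists or binding proteins, 8 Smads and the 4 Id genes. C57Bl/6 mouse embryos were collected at embryonic day 12.5 (E12.5), with no treatment or genetic change named in the labels. The dorsal samples came from the strip between aortic roof and notochord, and the ventral samples from beneath the aorta. Both were cut by laser from frozen sections of the same embryos, and hybridised to Affymetrix Gene 2.0 ST arrays, 4 for each tissue, numbered 1 to 4. The labels do not say whether a number stands for 1 embryo or a pool, so p-values reflect only the spread seen among these samples.

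Ligands of this superfamily are secreted dimers that bring together type I and type II receptor kinases on the cell surface. Receptors for BMPs act through Smad1, Smad5 and Smad9, and receptors for TGF-beta and activin act through Smad2 and Smad3. Both groups of Smads join Smad4 and enter the nucleus, where BMP signals switch on the Id genes, whose products block basic helix-loop-helix transcription factors. Antagonists such as Noggin and Gremlin bind BMPs outside the cell, and Smad6 and Smad7 dampen the signal inside it. In the embryo BMPs pattern the mesoderm around the aorta, where the first blood stem cells form.

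Values are log2 intensities after robust multi-array averaging (RMA), and every difference is ventral minus dorsal on that scale. Of the 51 genes, 50 had a named row, and Gdf15 was not analysed here. A gene was tested where at least 4 of its 8 values exceeded the median of their array, 3.59 to 3.65. The test thus covered 40 genes, and the 10 under that level were Bmp6, Bmp10, Gdf3, Gdf6, Inhba, Inhbb, Bmpr1b, Acvrl1, Acvr2b and Chrd. The others were followed in a fit over 12416 genes with limma, with the replicate number as a block.

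None of the 40 genes passed at an adjusted p under 0.05 in limma (lowest adjusted p 0.207, for Id4), and 0 of all 12416 genes did, a background of 0%. At an unadjusted p under 0.05, 4 of the 40 (10%) stood out against 8.26% of all genes tested, a share near the background. The 3 lower in ventral tissue were Grem1, Id4 and Bmp7, where the background for lower genes was 4.18%. The 1 higher in ventral tissue was Bmp5, against 4.08% of all genes. Dorsal and ventral values did not overlap for 3 of the 40 genes (7.5%), Grem1, Id4 and Tgfbr1, against 4.39% of all genes. All 3 lay lower in ventral tissue, where the background for that direction was 2.38%. Of the 40 genes 17 (42.5%) had a difference above 0, against 49.2% of all genes. In the fit without the replicate block 4 genes were lower at an unadjusted p under 0.05, Tgfbr1 being the fourth, and 0 higher. Of all genes 7.99% had such a p, 4.02% lower and 3.97% higher. After adjustment 0 of the 40 passed in that fit, against 0.0322% of all genes. In bulk tissue, fewer cells of a type and less RNA per cell cannot be told apart.

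**Figure D1:**
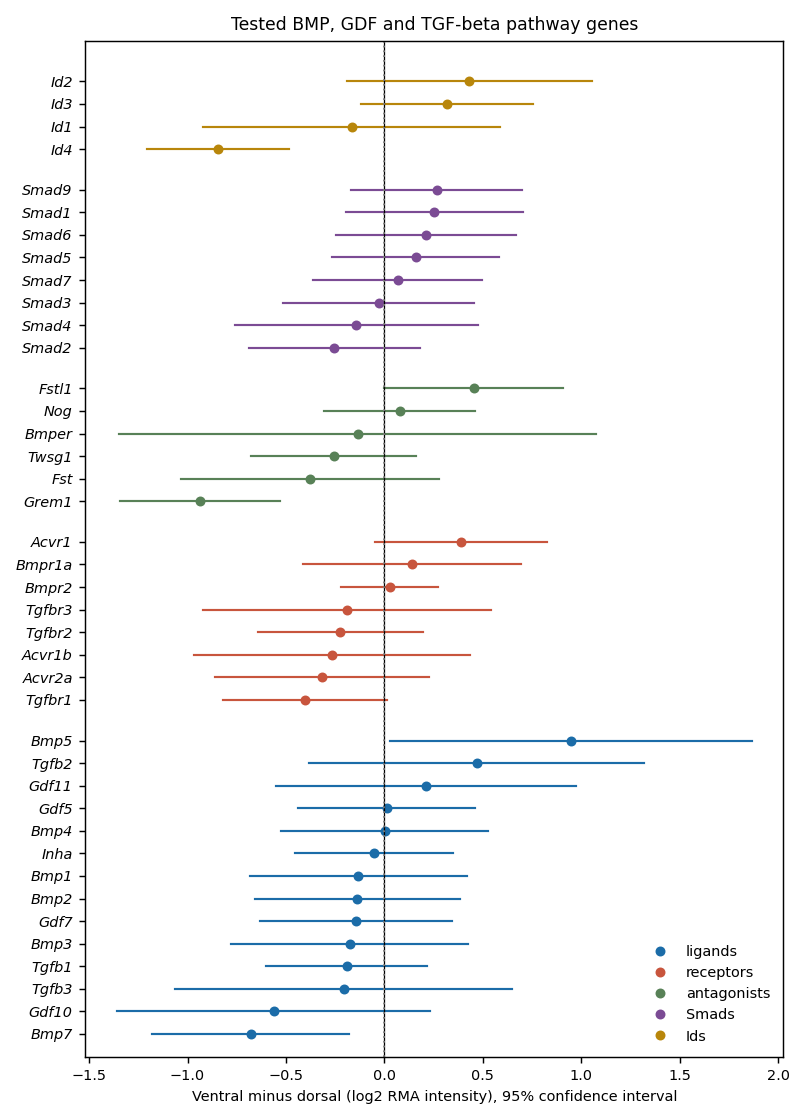
Ventral minus dorsal difference on the log2 scale (horizontal axis) for the 40 tested genes, with 95% confidence intervals from limma before adjustment; the dotted line is the median of all genes tested. The intervals of Grem1 (-1.34 to -0.53), Id4 (-1.21 to -0.49), Bmp7 (-1.18 to -0.18) and Bmp5 (0.03 to 1.86) do not include 0.

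Because Grem1 and Id4 lay lower in ventral tissue while the related genes Id2 and Id3 did not, the 250 bases before the start of each are shown, from RefSeq on build GRCm38.p6. Id1 is named only. The promoter table held 35 of the 51 genes. Capitals mark GGCGCC, a palindrome that BMP Smads can bind, and CAGAC or its reverse complement GTCTG, bound by TGF-beta Smads and Smad4. The motifs do not overlap each other here. Grem1 is at chr2:113758649-113758898, minus strand, Id4 at chr13:48260866-48261115, plus strand, Id2 at chr12:25096093-25096342, minus strand and Id3 at chr4:136143572-136143821, plus strand, all printed 5′ to 3′ towards the gene.
Grem1: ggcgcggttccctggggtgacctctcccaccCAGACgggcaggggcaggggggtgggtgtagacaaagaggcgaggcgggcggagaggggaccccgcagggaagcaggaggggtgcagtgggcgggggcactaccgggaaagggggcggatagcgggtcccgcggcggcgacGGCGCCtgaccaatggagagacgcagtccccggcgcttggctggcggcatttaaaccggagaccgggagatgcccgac
Id4: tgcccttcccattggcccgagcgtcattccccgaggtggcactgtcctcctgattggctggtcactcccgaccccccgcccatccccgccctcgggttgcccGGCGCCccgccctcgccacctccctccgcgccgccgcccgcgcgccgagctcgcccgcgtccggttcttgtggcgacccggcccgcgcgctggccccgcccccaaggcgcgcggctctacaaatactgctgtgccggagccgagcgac
Id2: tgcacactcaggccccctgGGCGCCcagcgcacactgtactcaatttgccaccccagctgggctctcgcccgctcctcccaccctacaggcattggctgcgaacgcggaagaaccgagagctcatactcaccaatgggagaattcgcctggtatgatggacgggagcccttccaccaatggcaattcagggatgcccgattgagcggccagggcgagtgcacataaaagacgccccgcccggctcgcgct
Id3: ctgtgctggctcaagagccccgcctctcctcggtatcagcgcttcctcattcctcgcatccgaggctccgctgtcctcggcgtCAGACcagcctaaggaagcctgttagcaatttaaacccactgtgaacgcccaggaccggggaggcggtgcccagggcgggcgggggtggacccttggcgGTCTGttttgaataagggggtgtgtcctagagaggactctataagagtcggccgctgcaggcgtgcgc
GGCGCC occurs 1 time in the windows of Grem1 (from position -78, counted from the start), Id4 (-148) and Id2 (-231), and 0 times in that of Id3. It occurs in 9.59% of all 32851 windows in the table. Among the genes shown that hold it, Grem1 and Id4 lay below 0 and Id2 above 0, though Id2 was lower in 2 of 4 replicate numbers. A link between the motif and the differences was not tested. CAGAC on either strand occurs 1 time for Grem1, 2 times for Id3 and 0 times for Id2 and Id4, against 42.2% of all windows. Over all the genes matched, 9 of 35 (25.7%) had GGCGCC in at least 1 window, against 10.8% of the 27025 genes in the table. They were 0 of 13 ligand genes, 3 of 9 receptors, 2 of 5 antagonists, 2 of 5 Smads and 2 of 3 Id genes. These matches describe letters only, and the background was not matched for base composition.

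Grem1, which encodes the BMP antagonist Gremlin, had the lowest difference of the 40 genes. Its dorsal values on arrays 1 to 4 were 4.68, 4.90, 4.25 and 5.14, and its ventral values were 4.13, 3.74, 3.35 and 4.01. All ventral values lay below all dorsal values. The difference was -0.94 (SE 0.17), a 1.91-fold lower level (limma, unadjusted p = 0.000914, adjusted p = 0.211). Ventral values came close to the array median, on 1 array beneath it, and background there can compress a difference. With 1 replicate number left out it ranged from -1.07 to -0.86.

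The other antagonists lay on both sides of 0, with overlapping groups in each. Noggin (Nog), which blocks BMP dimers from their receptors, read 4.06, 3.92, 4.14 and 3.95 in dorsal and 4.00, 4.41, 4.02 and 3.94 in ventral tissue. Its difference was 0.08, with a 95% interval of -0.31 to 0.46. Follistatin (Fst), which binds activins, read 4.07, 4.70, 4.62 and 5.51 in dorsal and 4.71, 4.31, 3.72 and 4.65 in ventral tissue. The ranges overlapped, and the difference of -0.38 (SE 0.28) became -0.72 without replicate number 1 and -0.20 without number 3. Fstl1, a secreted glycoprotein related to follistatin, read 9.04, 9.16, 8.99 and 8.57 in dorsal and 8.79, 10.05, 9.55 and 9.18 in ventral tissue. It was higher in 3 of 4 replicate numbers, with a difference of 0.45 (SE 0.19, unadjusted p = 0.0505). Twsg1, a chordin and BMP binding protein, read 5.92, 6.43, 6.65 and 6.70 in dorsal and 5.95, 6.14, 6.08 and 6.49 in ventral tissue, a difference of -0.26 (SE 0.18). Bmper, which binds BMPs in the vessel wall, varied most within a tissue, from 5.33 to 8.03 in dorsal arrays, and differed by -0.14 (SE 0.51), or by 0.44 without replicate number 2. Of the 6 antagonists tested, 4 lay below 0 and 2 above, with a median of -0.20 against -0.0039 for all genes tested.

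Among the ligands, Bmp7, which acts in kidney and skeletal development, was the one with an unadjusted p under 0.05 and a lower ventral level. It read 6.04, 6.05, 6.37 and 5.71 in dorsal and 5.47, 5.85, 5.18 and 4.96 in ventral tissue. It was lower in 4 of 4 replicate numbers, although ventral 2 lay above dorsal 4. The difference was -0.68 (SE 0.21, unadjusted p = 0.0147, adjusted p = 0.444), and -0.51 with unadjusted p = 0.072 without replicate number 3.

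Bmp5, a BMP of the same subfamily as Bmp7 that shapes cartilage, went the other way. Its dorsal values were 5.96, 6.02, 6.43 and 5.72 and its ventral values 5.72, 8.14, 6.74 and 7.33. Ventral arrays 2, 3 and 4 stood above every dorsal array and ventral 1 did not. The difference was 0.95 (SE 0.39, unadjusted p = 0.0448, adjusted p = 0.594), and it was 0.56 without replicate number 2 and 1.34 without number 1. The ventral SD of 1.02 exceeded the dorsal SD of 0.29 (n = 4 each).

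Bmp4, the BMP most studied under the aorta, had equal tissue means. The dorsal mean was 5.77 ± 0.47 and the ventral mean 5.77 ± 0.06 (± SD over 4 arrays each). Its dorsal values were 5.21, 6.28, 5.99 and 5.60 and its ventral values 5.81, 5.78, 5.82 and 5.68. Dorsal arrays thus lay on both sides of a tight ventral group. The difference was 0.0015 with a 95% interval of -0.52 to 0.53 before adjustment. With 4 arrays per tissue, differences within that interval in either direction remain possible, and the interval is not a detection limit.

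Gdf10, a ligand also known as Bmp3b, read 5.84, 7.02, 6.10 and 4.92 in dorsal and 4.74, 5.66, 5.64 and 5.59 in ventral tissue. Its difference of -0.56 (SE 0.34) became -0.98 without replicate number 4 (unadjusted p = 0.008) and -0.29 without number 2. Tgfb2, a TGF-beta ligand of mesenchyme, read 6.18, 6.97, 7.03 and 5.58 in dorsal and 5.90, 7.02, 7.17 and 7.54 in ventral tissue. Its difference of 0.47 (SE 0.36) rested on number 4 and was -0.028 without it. Tgfb1, the TGF-beta of blood and endothelial cells, read 3.82, 4.18, 4.13 and 4.62 in dorsal and 3.73, 4.16, 4.15 and 3.94 in ventral tissue. Its difference was -0.19 (SE 0.17), and -0.029 without number 4.

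The remaining 8 tested genes of the ligand class, Bmp1, Bmp2, Bmp3, Gdf5, Gdf7, Gdf11, Tgfb3 and Inha, differed by -0.21 (Tgfb3) to 0.21 (Gdf11). Tgfb3 was at -0.69 without number 4 (unadjusted p = 0.023), and Gdf11 at 0.64 without number 2 (unadjusted p = 0.020) and -0.0028 without number 4. Bmp1 is not a ligand but a protease that cleaves procollagens and chordin, and it differed by -0.13 (SE 0.23). Inha, the alpha subunit of inhibins, differed by -0.05 (SE 0.17). Of the 14 tested genes in the class, 9 lay below 0 and 5 above, with a median of -0.14. The 6 ligand genes under the array median included Bmp6, at 2.91 to 3.42 on all 8 arrays, and the activin subunit Inhba, at 2.61 to 3.31.

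The 8 receptor genes tested differed by -0.40 to 0.39 between the tissues. Tgfbr1, the type I receptor for TGF-beta, read 6.98, 6.85, 6.97 and 7.01 in dorsal and 6.65, 6.80, 6.35 and 6.39 in ventral tissue. All ventral values lay below all dorsal values (difference -0.40, SE 0.18, unadjusted p = 0.0561). Without the replicate block its unadjusted p was 0.0266 and its adjusted p 0.555. Acvr1, a type I receptor for BMPs, read 4.86, 5.19, 4.98 and 4.38 in dorsal and 5.20, 5.47, 5.14 and 5.15 in ventral tissue. It was higher in 4 of 4 replicate numbers, with a difference of 0.39 (SE 0.19, unadjusted p = 0.0749), though the groups overlapped through dorsal 2.

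Acvr2a, a type II receptor for activins and BMPs, read 7.51, 5.89, 6.62 and 5.49 in dorsal and 6.56, 5.90, 6.11 and 5.66 in ventral tissue. Both tissues of number 1 were the highest of their group. The difference was -0.32 (SE 0.23), and -0.11 without that number. Tgfbr2, the type II receptor for TGF-beta, read 4.91, 5.52, 5.18 and 4.65 in dorsal and 4.48, 5.24, 4.91 and 4.74 in ventral tissue, a difference of -0.22 (SE 0.18). Bmpr1a, the broadly expressed type I BMP receptor, read 7.13, 7.34, 6.99 and 6.48 in dorsal and 7.01, 6.95, 7.14 and 7.40 in ventral tissue. Its difference of 0.14 (SE 0.24) was -0.12 without replicate number 4.

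The type II receptor Bmpr2 differed by 0.03 with a 95% interval of -0.22 to 0.27, the narrowest of the receptors. The co-receptor Tgfbr3, or betaglycan, differed by -0.19 (SE 0.31) and Acvr1b, an activin receptor, by -0.27 (SE 0.30). Of the 8 receptors tested, 5 lay below 0 and 3 above, with a median of -0.21. Bmpr1b exceeded the array median on 1 array, dorsal 1, at 3.83. Its other dorsal values were 3.25, 3.33 and 2.82, and its ventral values were 3.11, 2.67, 2.22 and 2.28. The mean difference was -0.74, lower in 4 of 4 replicate numbers. Bmpr1b, a type I BMP receptor of skeletal precursors, was outside the main test for its low level, and in a fit without the filter it had an unadjusted p of 0.000593 and an adjusted p of 0.348. Acvrl1, the receptor for BMP9 and BMP10 of endothelial cells, stood at 3.23 to 3.88 and exceeded the median on 2 arrays.

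The 8 Smads lay closest together, with differences from -0.26 to 0.27 and a median of 0.11. Smad9, a BMP Smad, read 3.88, 4.05, 4.01 and 4.09 in dorsal and 4.03, 4.19, 4.82 and 4.05 in ventral tissue. Its difference of 0.27 (SE 0.18) was 0.08 without replicate number 3. Smad1, the first of the BMP Smads, read 6.37, 5.51, 5.69 and 4.46 in dorsal and 6.28, 5.62, 6.19 and 4.95 in ventral tissue. Its level followed the replicate number, highest in number 1 and lowest in number 4 of both tissues, and the tissues differed by 0.25 (SE 0.19). Smad5 differed by 0.16 (SE 0.18).

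Smad2, which carries TGF-beta and activin signals, read 7.61, 7.50, 7.45 and 7.01 in dorsal and 6.90, 7.13, 7.44 and 7.08 in ventral tissue, a difference of -0.26 (SE 0.18). Its partners Smad3 and Smad4 differed by -0.03 and -0.14. The inhibitory Smad6 read 5.21, 5.21, 5.01 and 5.08 in dorsal and 5.04, 5.34, 5.59 and 5.37 in ventral tissue, a difference of 0.21 (SE 0.19). The inhibitory Smad7 read 4.59, 4.47, 5.09 and 5.05 in dorsal and 4.64, 4.76, 4.79 and 5.28 in ventral tissue, a difference of 0.07 (SE 0.18). Both are induced by the signals they limit, and in neither did the groups separate.

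The Id genes lay on both sides of 0, with 2 above and 2 below. Id4, the member of the family active in neural and skeletal precursors, read 4.76, 4.996, 5.03 and 4.72 in dorsal and 3.95, 4.12, 4.10 and 3.94 in ventral tissue. The groups did not overlap, and the SD was 0.16 in dorsal and 0.10 in ventral tissue (n = 4 each). The difference was -0.85 (SE 0.15, 1.80-fold lower, unadjusted p = 0.000812, adjusted p = 0.207). It ranged from -0.87 to -0.82 with 1 replicate number left out, the tightest range of the 4 genes discussed first (Grem1, Id4, Bmp7 and Bmp5).

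Id3 read 6.08, 6.22, 6.02 and 5.48 in dorsal and 6.14, 6.59, 6.16 and 6.17 in ventral tissue. It was higher in 4 of 4 replicate numbers, but by 0.32 (SE 0.19, unadjusted p = 0.131), with overlapping groups. Id2 read 7.38, 7.51, 7.49 and 7.18 in dorsal and 7.14, 7.43, 8.37 and 8.34 in ventral tissue. Ventral arrays 3 and 4 stood apart above the rest, and the difference was 0.43 (SE 0.26). It was 0.66 without number 1 (unadjusted p = 0.045) and 0.19 without number 4. Id1 read 6.07, 7.06, 6.97 and 5.64 in dorsal and 6.82, 5.96, 6.32 and 5.97 in ventral tissue, with a difference of -0.17 (SE 0.32) that was 0.15 without replicate number 2.

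To ask whether the Id genes differed from one another in their tissue difference, the gap between each of the 6 pairs was compared over the arrays. Id4 minus Id3 was -1.07 in dorsal and -2.24 in ventral tissue, lower in 4 of 4 replicate numbers. Id4 minus Id2 was -2.51 in dorsal and -3.79 in ventral tissue, also lower in 4 of 4. An exact two-sided permutation test over the 70 assignments of the arrays gave p = 0.0286 for both pairs, the smallest it can give, and 0.0857 adjusted over the 6 pairs. The other pairs had unadjusted p from 0.143 to 0.743. That test ignores the replicate number. Id4 alone already had no overlap between the tissues, so its pairs with Id3 and Id2 in part restate that separation. Within the numbers, the gap of Id4 minus Id3 changed by -1.16 (SD 0.25, n = 4) and that of Id4 minus Id2 by -1.28 (SD 0.70, n = 4). An exact two-sided sign-flip permutation over the 4 numbers gave p = 0.125 for both, which is the smallest it can reach, so it cannot pass the threshold.

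**Figure D2:**
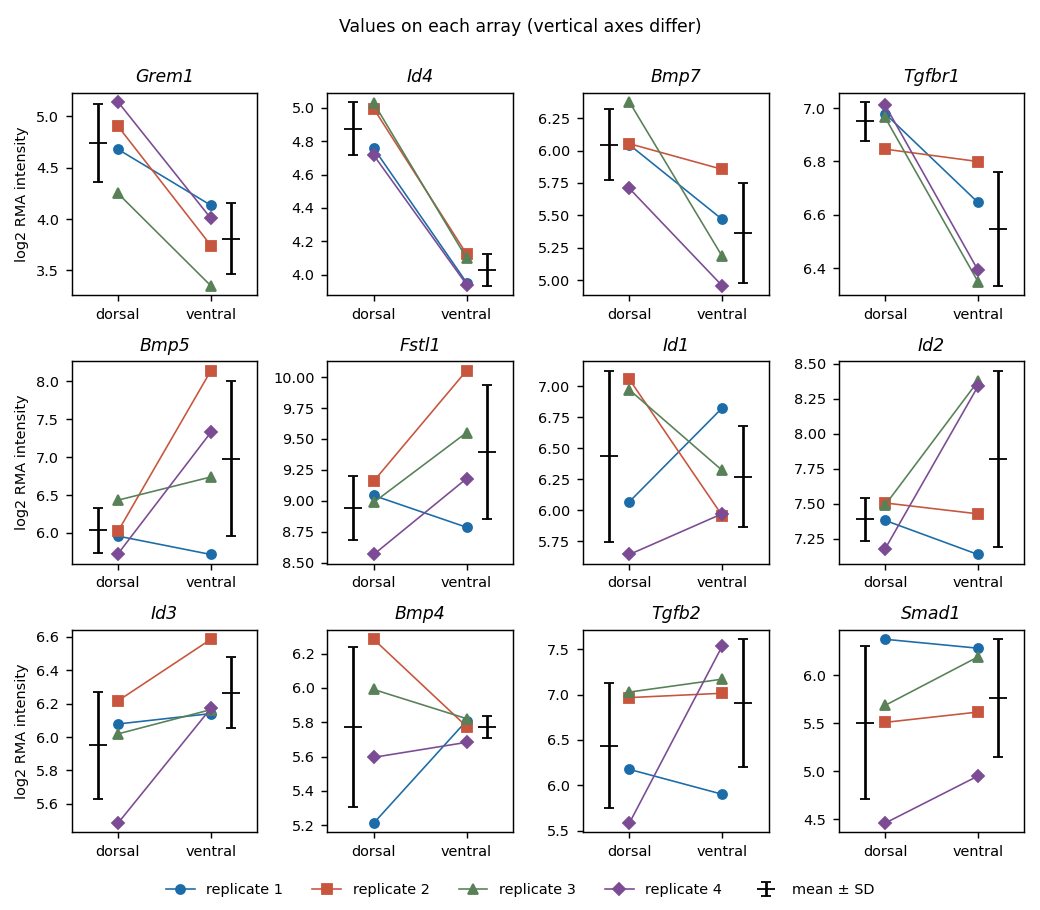
Log2 RMA intensity on each array (vertical axis, scaled separately per gene) for 12 of the genes, with lines joining the dorsal and ventral array of a replicate number and bars giving mean ± SD (n = 4). Grem1, Id4 and Tgfbr1 have no overlap between the tissues, whereas Bmp4 has equal means of 5.77.

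Marker lists of several other cell types also differed in mean between the tissues, some with and some without the array pattern of these genes. In lists that were chosen with earlier results of these data known, all 8 sclerotome markers were lower in ventral tissue. Their mean ranged from 5.55 to 6.71 over the dorsal arrays and from 4.48 to 4.78 over the ventral arrays. Neural tube markers were lower in ventral tissue for 9 of 10, at 3.39 to 4.03 against 3.54 to 5.22. Skeletal muscle markers were lower for 7 of 8, at 4.35 to 4.80 against 4.33 to 5.40. Liver markers were lower for 7 of 7 and erythroid markers for 4 of 6. Unadjusted p in limma was under 0.05 for 7 sclerotome, 1 neural tube, 1 liver, 0 skeletal muscle and 0 erythroid markers. Of the neural tube markers 4 lay under the filter, and their mean was highest on dorsal 1 (5.22). Of all genes tested, 49.2% had a difference above 0. Grem1, Id4 and Bmp7 were lower in the same tissue, in 4 of 4 replicate numbers. The sclerotome mean was lower in ventral tissue in 4 of 4 numbers as well. The neural tube and skeletal muscle means were lower there in every number except number 3. In that number they were higher in ventral tissue (3.95 against 3.54, and 4.39 against 4.33).

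Bmp5 was higher in ventral tissue, and so were the means of several lists. Those of endothelium, notochord and mesothelium were higher by only 0.13, 0.18 and 0.26, with overlapping ranges. Smooth muscle markers were higher for 7 of 8, with means of 5.05 to 6.30 in ventral and 4.64 to 5.15 in dorsal arrays. All 8 macrophage markers were higher, at 4.94 to 5.59 against 4.22 to 5.06, and all 7 sympathoadrenal markers, at 4.40 to 6.94 against 4.37 to 4.80. In replicate number 2, however, the sympathoadrenal mean was lower in ventral tissue (4.40 against 4.79). Among ventral arrays, Bmp5 was lowest on ventral 1 (5.72) and highest on ventral 2 (8.14). The smooth muscle mean was also lowest on ventral 1 (5.05) and highest on ventral 2 (6.30). The visceral mesenchyme mean was lowest on ventral 1 (4.69) and highest on ventral 4 (5.92). The macrophage, sympathoadrenal and endothelial means were highest on ventral 1 (5.59, 6.94 and 5.04). Visceral mesenchyme markers were higher for 6 of 8, at 4.69 to 5.92 against 4.23 to 4.74, while its members Foxf1 (-0.44) and Foxf2 (-1.34) were lower. Of the 10 endothelial markers, 8 were higher in ventral tissue, and 8 lay above the filter. Their mean ranged from 4.11 to 5.20 in dorsal and from 4.79 to 5.04 in ventral arrays. Notochord markers were higher for 5 of 5, with Noto under the filter, and mesothelium markers for 5 of 8. Unadjusted p in limma was under 0.05 for 3 smooth muscle, 3 macrophage, 2 sympathoadrenal and 5 visceral mesenchyme markers (Foxf2, which was lower, among the 5). It was under 0.05 for 1 endothelial, 2 mesothelium and 0 notochord markers. The part of any of these cells in the results was not tested.

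Dorsal replicate 4 stood apart from the other dorsal arrays. Its mean over 7 liver markers was 7.65, against 3.37 to 3.45 on the other dorsal arrays, and ventral 4 was at 5.99. Of these 7 markers, 5 lay under the filter. Its mean over 6 erythroid markers was 9.50 against 7.50 to 7.89. Dorsal 1 had a neural tube mean of 5.22 against 3.54 to 3.91 on the other dorsal arrays. Arrays correlated across genes at r = 0.907 to 0.957 within dorsal and 0.907 to 0.948 within ventral tissue, and genes are not independent replicates.

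Many of the pathway genes had their lowest dorsal value on that array. It was the lowest of the 4 dorsal arrays for 25 of the 40 genes (62.5%), against 30.1% of all genes tested. These included 9 of 14 ligand genes, 6 of 8 receptors, 5 of 8 Smads and 4 of 4 Id genes, but 1 of 6 antagonists. Dorsal 2 was the highest for 17 of the 40 (42.5%), against 24.1% of all genes. The part of liver and blood cells in this was not tested.

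**Figure D3:**
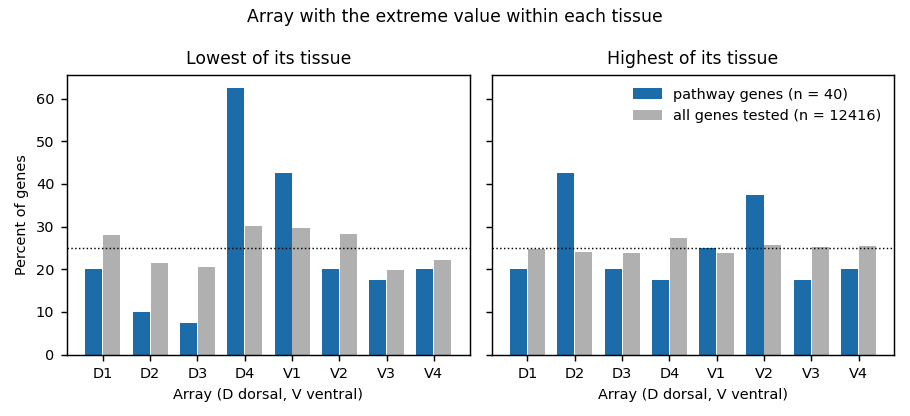
Percent of genes (vertical axis) for which each array (D dorsal, V ventral, numbers are replicate numbers) gave the lowest (left) or highest (right) value of its tissue, for the 40 tested pathway genes and all 12416 genes; the dotted line is an equal share of 25%. Dorsal 4 is lowest for 62.5% of the pathway genes against 30.1% of all genes.

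The class medians moved with that replicate number. In number 4 the median difference was 0.22 for ligands, 0.17 for receptors, 0.31 for Smads and 0.51 for Id genes. In numbers 1, 2 and 3 the ligand median ran from -0.17 to -0.11 and the receptor median from -0.23 to -0.07. The Id median ran from -0.48 to -0.09 in these numbers. The antagonist median was below 0 in all 4 numbers, from -0.73 to -0.02. Without replicate number 4, 6 of the 40 genes had an unadjusted p under 0.05 and a lower ventral level, Grem1, Id4, Bmp7, Gdf10, Tgfb3 and Acvr1b, and 0 a higher one, with 0 called after adjustment. In that fit 8.44% of all genes had an unadjusted p under 0.05, 4.41% lower and 4.04% higher in ventral tissue.

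**Figure D4:**
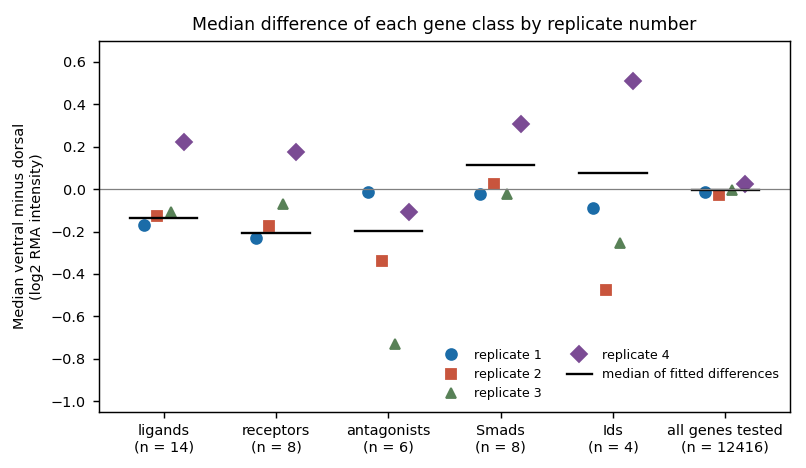
Median ventral minus dorsal difference (log2 RMA intensity, vertical axis) over the tested genes of each class, in each replicate number (symbols) and over the fitted differences (black bar). Replicate number 4 lies above the other numbers for ligands, receptors, Smads and Id genes, while all genes tested stay near 0.

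Beyond these genes, 81 further genes of the pathway were listed, of which 76 had a named row and 56 were tested. None was called after adjustment in limma. At an unadjusted p under 0.05, 7 were higher and 3 lower in ventral tissue, together 17.9% of the 56, against 8.26% of all genes tested. This list was chosen with earlier results of these data known, so the share describes the list and is not a test of the pathway. Among receptors and co-receptors, Rgmb, a BMP co-receptor of neural tissue, differed by -0.98 (SE 0.22, unadjusted p = 0.00266, adjusted p = 0.266) without overlap between the tissues. Bambi, a decoy receptor that BMPs induce, differed by 0.52 (SE 0.22) and Rgma, a relative of Rgmb, by -0.39 (SE 0.29).

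Among secreted regulators, 14 of 16 tested genes (87.5%) lay above 0, against 49.2% of all genes tested, with a median of 0.14. Of the 16, 2 had an unadjusted p under 0.05 in limma. Several of the 14 lay near 0 or turned sign under at least 1 alternative. Decorin (Dcn) and biglycan (Bgn), proteoglycans that bind TGF-beta, differed by 1.64 (SE 0.60) and 0.53 (SE 0.21), and Ltbp1, which tethers latent TGF-beta to the matrix, by 0.59 (SE 0.28). Decorin was at 8.79 on dorsal 4, against 5.76 to 6.33 on the other dorsal arrays. Of 20 intracellular regulators, 14 lay below 0 and 6 (30%) above, and 2 had an unadjusted p under 0.05 in limma. Fkbp1a, which holds type I receptors inactive, differed by 0.57 (SE 0.19, higher in 4 of 4 replicate numbers), the phosphatase Ctdspl by -0.74 (SE 0.31) and the deubiquitinase Usp9x by -0.39 (SE 0.17).

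Known targets of the pathway went both ways. Of 11 tested, 6 lay above 0 and 5 below. The 11 include Acta2 and Tagln, which are also in the smooth muscle marker list. Sox9, which drives cartilage formation and is also in the sclerotome marker list, differed by -1.09 (SE 0.29). Tgfbi, a matrix protein induced by TGF-beta, differed by 0.54 (SE 0.21), and Dlx5, a homeobox gene that BMPs induce, by 1.60 (SE 0.62). Dlx5 was high on ventral 1 and 2, at 7.16 and 6.58, and at 4.14 and 3.77 on ventral 3 and 4. Of 4 further ligands tested, Gdf9, Bmp8b and Bmp8a differed by 0.11, -0.14 and -0.03.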

How the data were processed

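Expression was measured on 8 Affymetrix arrays, 4 per tissue, from 200 to 1000 pg of total RNA amplified before labelling, per the labels' protocols, so their number and the amplification limit the precision. Values are log2 intensities that the authors deposited after Affymetrix Expression Console and RMA, per the submitters' processing notes. Versions and the array definition are not given in the sources used here. Because RMA makes arrays alike, differences are relative to other genes on the array.

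The platform table gave 1 symbol to 24675 of 25429 rows, several to 0 and none to 754. Genes were fitted with limma 3.58.1 (R 4.3.3; lmFit, eBayes with trend and robust), with replicate number as a fixed block, a two-sided moderated test and Benjamini-Hochberg adjustment over 12416 genes at 0.05. The block was kept because both tissues came from the same embryos, per the labels. Deviations of same-numbered arrays correlated at 0.02 to 0.12, with 2 of 4 above 0.1, and those of different numbers at -0.13 to 0.10, with 1 of 12 above it. Xist was high in both tissues of number 3 (9.07 and 8.69) and at 2.50 to 2.85 on the other 6 arrays, so sex matched within every number.

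Genes with values on every array were, per class, the 4 with the smallest unadjusted p, a fixed list of 14 (Bmp4, Bmp7, Tgfb1, Tgfb2, Bmpr1a, Tgfbr2, Nog, Grem1, Smad6, Smad7 and the Id genes) and those without overlap. Of each further class, 3 were named by smallest p. The genes and lists were chosen with earlier results of these data known. The 12 alternatives changed the block, filter, scaling, moderation, array weights or left out a replicate number.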

Additional observations from a re-analysis of the deposited data

Results flagged for a closer look

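Within the 80 groups of 4 arrays formed by the 40 tested genes and both tissues, 5 held an array far from the other 3 (by the gap to the nearest array over the group's range, Dixon's 95% limit), and chance gives about 1 in 20. Bmp2 was at 4.39 and Bmp3 at 5.50 in dorsal 2, against 3.79 to 3.88 and 4.78 to 4.85 on the other dorsal arrays. Gdf10 was at 4.74 in ventral 1, against 5.59 to 5.66. Tgfbr3 was at 5.37 in ventral 1, against 4.84 to 4.91. Id3 was at 6.59 in ventral 2, against 6.14 to 6.17.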

How the results depend on the processing

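In limma, 0 of the 50 genes were called under any of the 12 alternatives. The lowest adjusted p was 0.13 among the 40 tested (Id4, random replicate block) and 0.0691 among the 56 further pathway genes (Sox9, without replicate number 1). Without the replicate block, and with a random replicate block, 4 genes of all tested were called. In both, 0 pathway genes were higher at an unadjusted p under 0.05 (4 lower, Tgfbr1 joining). Of all genes, 3.97% and 4.18% were higher in these fits, and 4.02% and 4.18% lower. A stricter filter kept 23 of the 50 genes, without Grem1 and Id4, and called 10 of all genes. It gave 2 pathway genes higher and 1 lower, against 4.89% and 4.58% of all genes. No filter added Bmpr1b to the lower genes, 4 of 50 against 2.97% of all genes. Leaving out 1 replicate number gave 0 to 9 of all genes called (9 without number 1). It gave 0 to 3 pathway genes higher (3 without number 1, 0 without number 4) and 2 to 6 lower (6 without number 4). Of all genes, 3.04% to 4.40% were higher in these fits and 2.72% to 4.41% lower. The further pathway genes that were higher numbered 1 to 5 (1 without number 2). Signs turned under at least 1 alternative for 17 of the 40 genes tested, in 25 of 463 values, and for 22 of the 56 further genes. Among the 25 genes given on every array, 6 turned. Bmp4 was -0.0026 with arrays centred on the median and -0.025 with array weights. With 1 number left out, ranges were -0.20 to 0.17 for Bmp4, -0.028 to 0.72 for Tgfb2, -0.47 to 0.15 for Id1, -0.12 to 0.31 for Bmpr1a, -0.063 to 0.14 for Nog and -0.0079 to 0.19 for Smad7. Fewer arrays or genes enter the leave-out and filter settings; for the rest the cause was not tested. Values near the array median, as for Grem1, Id4 and Tgfb1, limit the size of a difference.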

Other observations

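Other marker lists chosen for the tissues had means of 3.98 to 4.63 in ventral and 3.51 to 4.75 in dorsal arrays for mesothelium (5 of 8 higher in ventral tissue). They were 3.88 to 4.70 and 3.84 to 4.90 for notochord (5 of 5 higher, 0 at an unadjusted p under 0.05 in limma). For mesonephros and gonad they were 3.27 to 3.43 and 3.19 to 3.84 (3 of 8 higher).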
